A study of Mus musculus with 7 samples.

Results

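The p53 axis of sorted mouse blood stem cells is described here through 9 genes, taken by their symbols from the deposited table of normalized counts and found among its 19649 genes. They are Trp53, which encodes p53, its inhibitors Mdm2 and Mdm4, and the p53 targets Ccng1, Phlda3, Zmat3, Trp53inp1, Sesn1 and Aen. All 9 passed the filter on low values. The study compared long-term haematopoietic stem cells of wild-type mice, whose genotype is given as Calr +/+ with MxCre (4 libraries), and of homozygous Calr mutant mice, given as Calr fl/fl (Calr del52/del52) with MxCre (3 libraries). MxCre is a Cre recombinase under an interferon-inducible promoter, and mice of both genotypes received pI:pC, a double-stranded RNA mimic that switches it on, so the control mice carried the Cre and the inducer as well. Cells that lacked lineage markers and CD48 and carried Kit, Sca-1 and CD150 were sorted 14 days after the start of induction, without drug treatment. Ages are not given in the sources read, and nothing says that the libraries stem from different animals, so p-values here cover the spread from library to library and no more.

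The wild-type libraries are numbered 1 to 4 and the mutant libraries 1 to 3. Wild-type 1 and 2 carry the titles Mx1_Cre1 and Mx1_Cre2, and wild-type 3 and 4 the titles Mx1_Cre6261 and Mx1_Cre6266. Mutant 1 and 2 are titled DEL52_6244 and DEL52_6246, and mutant 3 is titled DEL52_OT1865. Wild-type 3 and 4 and mutant 1 and 2 thus share a series of title numbers, called the 62xx series below, and the labels do not say whether this reflects a litter, cohort or batch. Between 21325340 and 28710304 reads were counted per library. Calr itself ranged over 15922 to 18606 normalized counts among wild-type and 14239 to 15724 among mutant libraries, and a count over the whole gene does not show a short deletion in it.

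p53 is a transcription factor that is held at a low level by Mdm2, an E3 ubiquitin ligase that marks it for degradation, and is blocked by Mdm4, a relative of Mdm2 that binds its activation domain. DNA damage, nucleolar stress and oncogenic signals release p53, which then switches on genes for cell cycle arrest, repair, redox defence and apoptosis. Mdm2 is itself a p53 target, which closes a negative feedback loop. In haematopoietic stem cells p53 is known for its part in quiescence and in the response to radiation. Because p53 is controlled mainly as a protein, the level of its mRNA does not measure its activity, and the target genes are the usual readout.

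The p53 binding motif consists of a pair of half-sites, and the promoter matches are shown because they bear on which of these genes hold such a site next to their start. RefSeq promoter windows on GRCm38.p6, each from 250 bases before to 50 after a transcription start, were found for 7 of the 9 genes and not for Zmat3 and Trp53inp1. The p53 half-site, searched on both strands under its usual consensus (it reads the same on each), was present in the windows of Aen, Sesn1, Mdm2, Ccng1 and Trp53 and not in those of Mdm4 and Phlda3. Of all windows 8.36% hold one, and of all genes 9.55%. A match to the full site of 20 bases, with no spacer between the half-sites, was scored by the number of agreeing positions. The Ccng1 site agreed at 19 of 20 positions, which 0.0670% of all windows reach, and the sites of Sesn1, Aen and Trp53 agreed at 17, which 1.38% of windows reach. In the sequences that follow, each on its gene's own strand, the capitals mark the best site around a half-site, or the half-site alone in Mdm2. Cdkn1a, the classical p53 target, is shown for comparison, and its site also agreed at 19 positions.
Ccng1 (chr11:40755422-40755521, minus strand): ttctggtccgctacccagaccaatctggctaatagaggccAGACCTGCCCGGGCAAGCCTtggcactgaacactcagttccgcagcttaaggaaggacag
Sesn1 (chr10:41887226-41887325, plus strand): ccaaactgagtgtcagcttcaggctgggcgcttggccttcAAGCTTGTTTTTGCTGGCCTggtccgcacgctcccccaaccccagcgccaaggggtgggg
Trp53 (chr11:69580244-69580343, plus strand): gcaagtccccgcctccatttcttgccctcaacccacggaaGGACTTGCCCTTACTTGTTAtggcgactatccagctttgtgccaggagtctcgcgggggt
Mdm2 (chr10:117710895-117710984, minus strand): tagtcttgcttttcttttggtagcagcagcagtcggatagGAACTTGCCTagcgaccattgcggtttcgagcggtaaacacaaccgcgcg
Aen (chr7:78895932-78895961, plus strand): aagccGGGCTTGTCCGGGCAAGGAGcttcc
Cdkn1a (chr17:29090888-29090978, plus strand): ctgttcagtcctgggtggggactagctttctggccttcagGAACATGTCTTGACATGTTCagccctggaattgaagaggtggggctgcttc
The capitals begin 195 bases before the annotated start in Ccng1, 173 bases before it in Sesn1, 75 bases before it in Trp53 and 186 bases before it in Mdm2, and in Aen they begin 10 bases after a start. A match describes these letters and does not show that p53 bound there.

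Over all 7 libraries none of the 9 genes passed the test between mutant and wild-type cells. No gene of the 16047 tested was called (0%; limma on log2 of the normalized count plus 1, two-sided, Benjamini-Hochberg adjusted p below 0.05), while 1365 had an unadjusted p below that value, edgeR called 0 and DESeq2 called 110. The wild-type libraries were spread more widely than the mutant ones for several members, with wild-type 3 and 4 apart from wild-type 1 and 2. Each member is therefore given below in every library, and then against each wild-type pair. Those comparisons share their mutant libraries and are not independent of each other. In bulk libraries a lower share of cells with a transcript and less RNA per cell cannot be told apart.

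**Figure D1:**
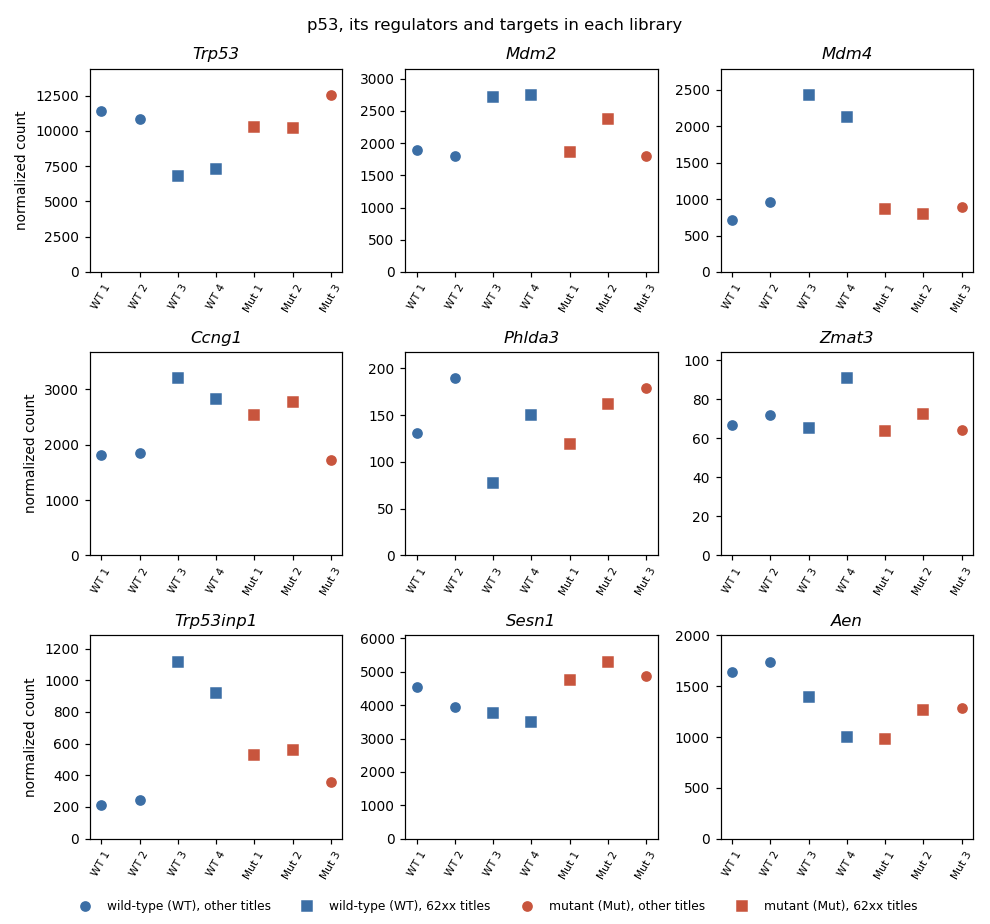
Normalized count (y axis, linear from 0) of each of the 9 genes in each of the 7 libraries (x axis), with 1 point per library. Squares are the libraries of the 62xx title series. Wild-type 3 and 4 sit apart from wild-type 1 and 2 for Trp53, Mdm2, Mdm4, Ccng1 and Trp53inp1.

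Trp53 (chr11:69580359-69591873, plus strand, GRCm38) had the highest level per length of the members measured in FPKM. Its normalized counts were 11445, 10879, 6809 and 7302 across wild-type 1 to 4, against 10314, 10240 and 12544 across mutant 1 to 3. The mutant libraries lay near wild-type 1 and 2 and above wild-type 3 and 4. Over all libraries the mean was 9109 ± 2391 (SD, n = 4) in wild-type and 11033 ± 1309 (SD, n = 3) in mutant cells, a log2 difference of 0.31 (SE 0.23, limma adjusted p = 0.553). In 24 alternatives that difference ran from 0.0081, with the length slope as a covariate, to 0.54, with only wild-type 3 and 4 and mutant 1 and 2. Against wild-type 1 and 2 the log2 difference was -0.02 (SE 0.16, limma adjusted p = 0.982). Trp53 was higher in the mutant when compared with wild-type 3 and 4, by 0.64 (SE 0.16, limma adjusted p = 0.0125). This call was lost without wild-type 3 (limma adjusted p = 0.125) or wild-type 4 (0.0845).

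Mdm2 (chr10:117688875-117710758, minus strand), the p53 ubiquitin ligase, had normalized counts of 1891, 1792, 2723 and 2745 across wild-type 1 to 4, against 1857, 2373 and 1794 across mutant 1 to 3. Wild-type 3 and 4 were the highest, and mutant 2 lay between them and the other 4 libraries. The log2 difference was -0.17 (SE 0.22, limma adjusted p = 0.694) over all libraries and 0.11 (SE 0.17, limma adjusted p = 0.891) against wild-type 1 and 2. The difference from wild-type 3 and 4 was -0.46 (SE 0.17, limma adjusted p = 0.0557), which missed the threshold although the libraries did not overlap. Without mutant 2 that difference was -0.58 and passed (limma adjusted p = 0.00249). It also passed with a filter of 50 in place of 10 (limma adjusted p = 0.0476), with 3 groups in 1 fit (0.0314) and in DESeq2 (DESeq2 adjusted p = 0.0489). With library weights it passed too (limma adjusted p = 5.98e-05), but the weights did not converge. That fit called 11598 of the tested genes, where the main fit called 6828.

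Mdm4 (chr1:132959484-133030561, minus strand), which shields p53's activation domain, showed the widest split between the wild-type pairs of the 3 genes of the core loop. Its normalized counts were 718, 960, 2426 and 2127 across wild-type 1 to 4, against 863, 798 and 884 across mutant 1 to 3. The 3 mutant libraries fell between wild-type 1 and wild-type 2, and all 5 of these libraries were far below wild-type 3 and 4. Over all libraries the log2 difference was -0.70 (SE 0.42, limma adjusted p = 0.538), and against wild-type 1 and 2 it was 0.03 (SE 0.18, limma adjusted p = 0.977). Compared with wild-type 3 and 4, Mdm4 was lower in the mutant, at -1.42 on the log2 scale (SE 0.15, limma adjusted p = 5.78e-04). That call held in 17 of 17 alternatives, with adjusted p up to 0.0194.

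The ratio of the inhibitors to p53 followed the same pattern. Per length, in FPKM summed over transcripts, the ratio of Mdm2 to Trp53 was 0.109 and 0.111 for wild-type 1 and 2, 0.272 and 0.249 for wild-type 3 and 4, and 0.120, 0.156 and 0.0888 across mutant 1 to 3. The FPKM ratio of Mdm4 to Trp53 was 0.0373 and 0.0460 for wild-type 1 and 2, 0.130 and 0.107 for wild-type 3 and 4, and 0.0484, 0.0382 and 0.0393 across mutant 1 to 3. Wild-type 3 and 4 thus had the highest ratio of either inhibitor to p53 among the 7 libraries.

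Among the targets, Ccng1 (chr11:40748552-40755311, minus strand) encodes cyclin G1, which recruits a phosphatase to Mdm2. Its normalized counts were 1817, 1849, 3198 and 2826 across wild-type 1 to 4, against 2544, 2777 and 1729 across mutant 1 to 3. Mutant 1 and 2 were close to wild-type 3 and 4, and mutant 3 was the lowest of all libraries, near wild-type 1 and 2. The log2 difference between genotypes was -0.03 (SE 0.27, limma adjusted p = 0.962) over all libraries. It was 0.33 (SE 0.21, limma adjusted p = 0.679) against wild-type 1 and 2 and -0.38 (SE 0.21, limma adjusted p = 0.178) against wild-type 3 and 4, and the latter passed without mutant 2 (-0.52, limma adjusted p = 0.0286). With library weights both passed, at 0.47 (limma adjusted p = 0.00419) and -0.24 (limma adjusted p = 0.0418), but the weights did not converge.

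Trp53inp1 (chr4:11156431-11174379, plus strand) encodes a stress protein that promotes p53 phosphorylation and autophagy. Its normalized counts were 214, 241, 1116 and 921 across wild-type 1 to 4, against 530, 562 and 356 across mutant 1 to 3. The 3 mutant libraries lay between the wild-type pairs and overlapped neither. The log2 difference was -0.02 (SE 0.61, limma adjusted p = 0.989) over all libraries. Against wild-type 1 and 2 it was 1.06 (SE 0.24, unadjusted p = 0.00153, limma adjusted p = 0.149). There it passed without mutant 2 (limma adjusted p = 0.0160), without mutant 3 (0.0115) and in DESeq2 (DESeq2 adjusted p = 0.00505). It also passed with limma's library weights (limma adjusted p = 2.63e-05), which did not converge. That fit called 4874 of the tested genes, where the main fit called 51. Compared with wild-type 3 and 4, Trp53inp1 was lower in the mutant, at -1.10 (SE 0.23, limma adjusted p = 0.00771), and this call was lost without wild-type 3 (limma adjusted p = 0.0817).

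Sesn1 (chr10:41809935-41908424, plus strand) encodes sestrin 1, which restrains mTORC1 and supports peroxiredoxins. Its normalized counts were 4555, 3932, 3756 and 3508 across wild-type 1 to 4, against 4746, 5297 and 4885 across mutant 1 to 3. It was the only one of the 9 genes whose groups did not overlap over all 7 libraries, and 5.23% of tested genes were separated in that direction (4.34% in the other). The mean was 3938 ± 446 (SD, n = 4) in wild-type and 4976 ± 286 (SD, n = 3) in mutant cells. The log2 difference was 0.34 with a 95% interval from -0.02 to 0.70 (unadjusted p = 0.0591, limma adjusted p = 0.538). It was 0.23 (SE 0.15, limma adjusted p = 0.691) against wild-type 1 and 2. Sesn1 was higher in the mutant when compared with wild-type 3 and 4, by 0.45 (SE 0.14, limma adjusted p = 0.0301). That call was lost without wild-type 3 (limma adjusted p = 0.147), wild-type 4 (0.225) or mutant 1 (0.0945), and without the variance trend (0.0728).

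Aen (chr7:78895854-78911209, plus strand) encodes a nuclease that acts in apoptosis. Its normalized counts were 1638, 1740, 1392 and 996 across wild-type 1 to 4, against 979, 1269 and 1281 across mutant 1 to 3. The mutant libraries lay below wild-type 1 and 2 and overlapped wild-type 3 and 4. The log2 difference was -0.27 (SE 0.23, limma adjusted p = 0.584) over all libraries and -0.53 (SE 0.18, limma adjusted p = 0.346) against wild-type 1 and 2. The latter passed without mutant 2 (-0.59, limma adjusted p = 0.0362) and with library weights (-0.78, limma adjusted p = 1.30e-04). Those weights did not converge. The difference from wild-type 3 and 4 was -0.01 (SE 0.20).

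Phlda3 and Zmat3 had the fewest reads of the 9 genes. Phlda3 (chr1:135766119-135769136, plus strand), an inhibitor of Akt, had normalized counts of 131, 189, 77.6 and 151 across wild-type 1 to 4, against 119, 162 and 179 across mutant 1 to 3. Zmat3 (chr3:32334792-32366014, minus strand), an RNA-binding zinc finger protein, had normalized counts of 66.6, 71.7, 65.1 and 90.6 across wild-type 1 to 4, against 63.9, 72.3 and 64.0 across mutant 1 to 3. The groups overlapped for both genes in each genotype comparison. The log2 difference over all libraries had a 95% interval from -0.56 to 0.98 for Phlda3 and from -0.70 to 0.45 for Zmat3. Zmat3 rests on 53 to 109 reads and Phlda3 on 93 to 182 reads per library.

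**Figure D2:**
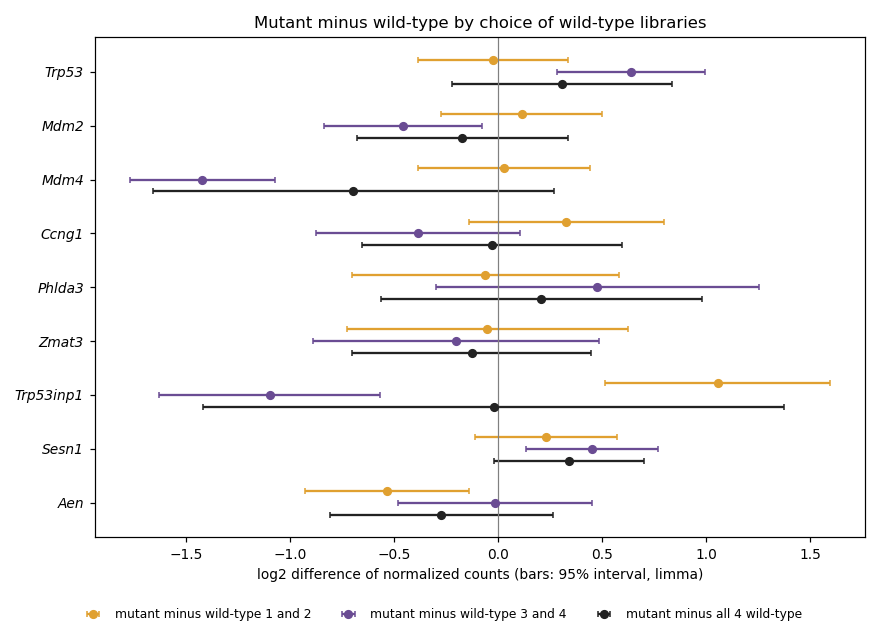
Log2 difference of normalized counts (x axis), mutant minus wild-type, for each of the 9 genes (y axis) against wild-type 1 and 2, against wild-type 3 and 4 and against all 4 wild-type libraries. Points are limma estimates and bars their 95% intervals, and the intervals of Trp53inp1 against the 2 pairs lie on opposite sides of 0.

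Counted together, 0 of the 9 genes were called against wild-type 1 and 2, where 0.318% of all tested genes were (0.237% higher, 0.081% lower). Their libraries did not overlap in the higher direction for 2 genes (13.9% of tested genes) and in the lower direction for 1 gene (12.4%). Against wild-type 3 and 4, 4 of the 9 were called, Trp53 and Sesn1 higher and Mdm4 and Trp53inp1 lower, where 42.6% of tested genes were called (19.7% higher, 22.8% lower). Libraries did not overlap there for 2 genes in the higher and 4 in the lower direction, beside 33.8% of tested genes in either. The share of members is near that background. The median log2 difference of the 9 genes was 0.03 against wild-type 1 and 2 and -0.20 against wild-type 3 and 4, beside 6.2e-05 and -0.0044 over all tested genes.

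The difference between the comparisons is the difference between the wild-type pairs, and 6 of the 9 genes passed the test for it. Trp53inp1 was higher in wild-type 3 and 4 than in wild-type 1 and 2 by 2.15 on the log2 scale (SE 0.16, limma adjusted p = 5.24e-06). Mdm4 was higher by 1.45, Ccng1 by 0.71 and Mdm2 by 0.57. Trp53 was lower, at -0.66 (SE 0.10, limma adjusted p = 3.46e-04), and so was Aen, at -0.52 (SE 0.15, limma adjusted p = 0.0164). Sesn1 (-0.22), Phlda3 (-0.54) and Zmat3 (0.15) did not pass. The background is wide here too, since 54.9% of tested genes were called between these pairs of 1 genotype (29.6% higher, 25.3% lower). The pairs did not overlap for 4 members in the higher direction (39.2% of tested genes) and for 3 in the lower (38.0%). The Aen call was lost without wild-type 1 (limma adjusted p = 0.104), wild-type 2 (0.149) or wild-type 4 (0.148), without the variance trend (0.117) and with 3 groups in 1 fit (0.0592), and the calls of the other 5 genes held in 16 of 16 alternatives each.

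Gene length moved with this difference across the whole table. The slope of a library's deviations against log2 exonic length was 0.24 for each of wild-type 3 and 4, and between -0.17 and 0.01 in the other 5 libraries. The members were therefore set beside the median of tested genes in their own class of exonic length (the tested genes were cut into 10 classes of like size). Trp53inp1, with 6475 exonic bases, differed by 2.15 between the pairs, where the median of its length class was 0.48, and stood at the 94.6th percentile of that class. Ccng1, with 3512 bases, differed by 0.71 where its class had a median of -0.06 (82.6th percentile). Mdm4, with 14798 bases, differed by 1.45 beside 0.71 (81.4th percentile), and Mdm2, with 5083 bases, by 0.57 beside 0.37 (57.8th percentile). Trp53, with 4045 bases, went the other way at -0.66 beside 0.19 (12.05th percentile), as did Aen, with 5801 bases, at -0.52 beside 0.48 (11.6th percentile). The part of gene length in these differences was not tested beyond the fits that carry the slope as a covariate.

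**Figure D3:**
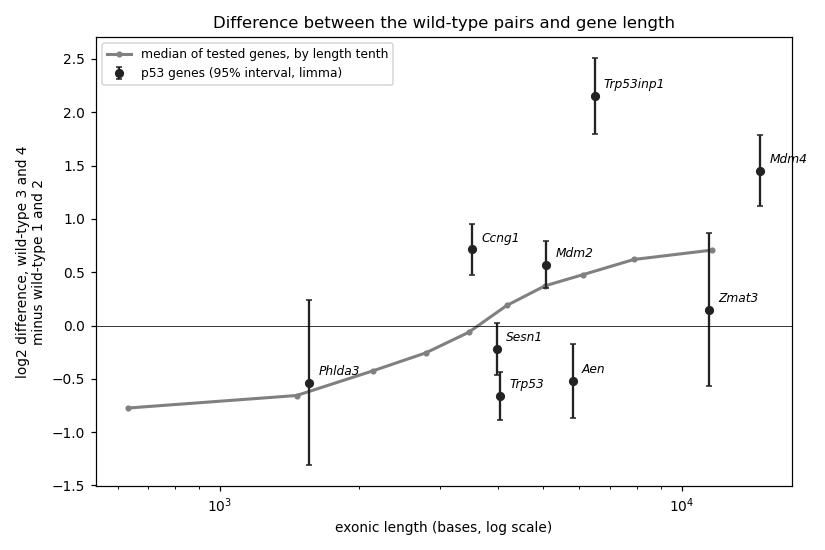
Log2 difference between wild-type 3 and 4 and wild-type 1 and 2 (y axis) against exonic length in bases (x axis, log scale) for the 9 genes, with 95% intervals from limma. The grey line joins the medians of tested genes in each class of length, and Trp53inp1 lies above it while Trp53 and Aen lie below.

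The title numbers offered another division, compared after the values had been seen. With genotype as a term in the fit, 5 of the 9 genes differed between the 62xx libraries and the other 3, where 37.1% of tested genes did (20.5% higher, 16.6% lower). Trp53inp1 was higher in the 62xx libraries by 1.54 (SE 0.29, limma adjusted p = 0.00724) and Ccng1 by 0.68 (SE 0.12, limma adjusted p = 0.00698). Mdm2 was higher by 0.43 (limma adjusted p = 0.0391) and Mdm4 by 0.83 (limma adjusted p = 0.0456), and Trp53 was lower, at -0.51 (limma adjusted p = 0.0136). The rise of Mdm4 was seen in the wild-type libraries only, since mutant 1 and 2 (863 and 798) did not exceed mutant 3 (884). Ccng1 lay between 2544 and 3198 in the 4 libraries of the series and between 1729 and 1849 in the other 3, and Trp53inp1 between 530 and 1116 against 214 and 356. For those 2 genes the libraries did not overlap (11.6% of tested genes were separated in that direction), and Trp53 was separated in the other direction (12.2% of tested genes).

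The calls of Trp53, Mdm2 and Mdm4 between the title series were lost without wild-type 1, 2, 3 or 4, each left out alone (limma adjusted p from 0.0587 to 0.0720 for Trp53, from 0.113 to 0.160 for Mdm2 and from 0.128 to 0.164 for Mdm4), and that of Mdm2 also without mutant 2 (0.0860). Quantile scaling ended the same calls (limma adjusted p = 0.0694 for Trp53, 0.0540 for Mdm2 and 0.0734 for Mdm4), and edgeR on the recovered reads ended that of Mdm4 (edgeR adjusted p = 0.0552). Those of Ccng1 and Trp53inp1 held with each library left out. With the length slope as a further covariate no gene of the 16047 was called in limma, and 539 had an unadjusted p below 0.05. In that fit the log2 difference was 0.53 for Ccng1 and 0.23 for Trp53inp1.

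Within the 62xx series alone, mutant 1 and 2 differed from wild-type 3 and 4 for 4 of the 9 genes, where 37.5% of tested genes were called. Trp53 was higher in the mutant by 0.54 (limma adjusted p = 0.0157) and Sesn1 by 0.47 (limma adjusted p = 0.0313). Mdm4 was lower, at -1.45 (limma adjusted p = 3.93e-04), and Trp53inp1 was lower, at -0.89 (limma adjusted p = 0.00566). Outside the series mutant 3 stood alone against wild-type 1 and 2, and its spread was taken to be like theirs. None of the 9 genes was called there (6.37% of tested genes were), with log2 differences of 0.17 for Trp53, 0.09 for Mdm4, 0.65 for Trp53inp1 and 0.21 for Sesn1. With the series as a covariate over all 7 libraries, 0 of the 9 were called for genotype and 22.4% of tested genes were. The smallest adjusted p among the members was then 0.0504, for Trp53 at 0.39, followed by Mdm4 at -0.83 (0.0622) and Sesn1 at 0.36 (0.0667), all from limma.

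The shift between the title series was itself set against genotype with an interaction term, for which 8.03% of tested genes were called and 2 of the 9 members, Mdm4 and Trp53inp1 (both -1.54 on the log2 scale, mutant shift minus wild-type shift). In each of these genes the 62xx libraries of the mutant stood nearer to mutant 3 than wild-type 3 and 4 stood to wild-type 1 and 2. The mutant shift rests on mutant 3 alone outside the series.

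The wider set of p53 targets was read from lists of 56 further genes, all tested. Over all 7 libraries 0 of the 56 were called (0% of tested genes), with 25 above and 31 below 0 and a median of -0.08. None was called against wild-type 1 and 2 either, where 0.318% of tested genes were. Against wild-type 3 and 4 the mutant was higher for 7 and lower for 13, where 19.7% and 22.8% of tested genes were called. Wild-type 3 and 4 exceeded wild-type 1 and 2 for 21 of the 56 and fell below them for 9, beside 29.6% and 25.3% of tested genes. Between the title series 19 were higher in the 62xx libraries and 6 lower, beside 20.5% and 16.6% of tested genes.

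Cdkn1a, the cell cycle inhibitor p21 and the best known p53 target, had normalized counts of 196, 356, 1648 and 2759 across wild-type 1 to 4, against 532, 1677 and 333 across mutant 1 to 3. Each 62xx library exceeded wild-type 1 and 2 and mutant 3. The log2 difference between the series was 2.41 (limma adjusted p = 0.00711), and that between genotypes was -0.17 (limma adjusted p = 0.932). Gdf15, a stress cytokine and p53 target named after its values were seen, had counts of 48.1, 65.4, 1718 and 2416 across wild-type 1 to 4, against 1581, 2772 and 234 across mutant 1 to 3. It was higher in the 62xx libraries by 4.36 (limma adjusted p = 0.00698). With the length slope as a further covariate neither passed (0.25 for Cdkn1a and 2.26 for Gdf15, limma adjusted p = 0.9997 and 0.581).

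Of the 14 apoptosis targets, 5 were higher and 2 lower in the 62xx libraries, a comparison in which 20.5% and 16.6% of tested genes were called. Bbc3, which encodes the killer protein Puma, had normalized counts of 452, 562, 840 and 1435 across wild-type 1 to 4, against 1021, 1022 and 748 across mutant 1 to 3, a log2 difference between the series of 0.85 (limma adjusted p = 0.0170). Bax, the pore-forming effector of mitochondrial apoptosis, went the other way, with 3675, 4060, 1848 and 1828 across wild-type 1 to 4, against 3158, 2733 and 4323 across mutant 1 to 3. It was lower in the 62xx libraries at -0.87 (limma adjusted p = 0.00698). These apoptosis targets thus did not all move in the same direction with the title series. The median log2 difference of tested genes between the series ran from -0.64 in the shortest of the 10 length classes to 0.49 in the longest. The part of gene length in the shifts of Bbc3 and Bax was not tested.

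**Figure D4:**
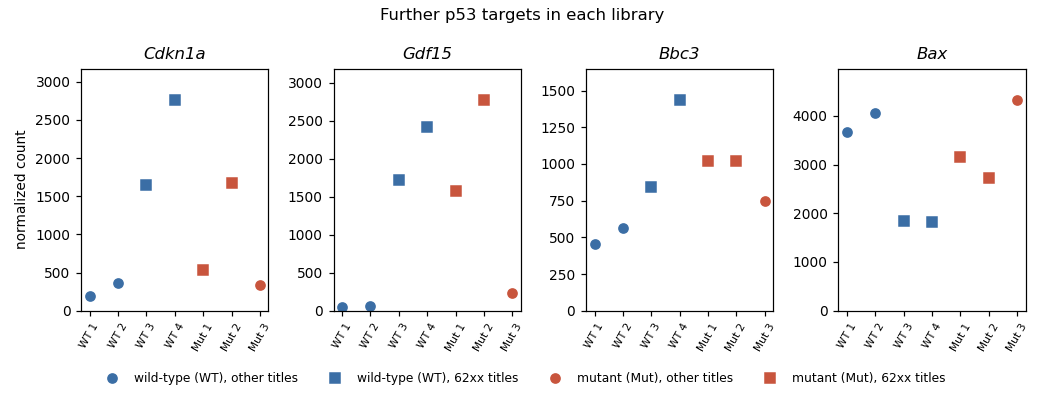
Normalized count (y axis, linear from 0) of Cdkn1a, Gdf15, Bbc3 and Bax in each of the 7 libraries (x axis), with squares for the 62xx title series. The squares lie above the circles for Cdkn1a, Gdf15 and Bbc3 and below them for Bax.

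The calls for genotype in the target classes were all against wild-type 3 and 4, where 42.6% of tested genes were called. Of the 12 cell cycle arrest targets 4 were lower and 0 higher in the mutant, among them Sfn (14-3-3 sigma) at -1.83 (limma adjusted p = 0.00866), while Gtse1 stood at -0.57 (limma adjusted p = 0.0793). Among the apoptosis targets 3 were higher and 3 lower, with Apaf1, the apoptosome scaffold, at -2.07 (limma adjusted p = 5.11e-04) and Ikbip at 0.66 (limma adjusted p = 0.0135). Of the 10 DNA repair and nucleotide targets 2 were higher and 2 lower, with Xpc, a damage sensor of nucleotide excision repair, at -0.92 (limma adjusted p = 0.0120). Of the 18 metabolism and stress targets 2 were higher and 4 lower, with the antioxidant gene Gpx1 at 1.04 (limma adjusted p = 0.0143) and the glutaminase gene Gls2 at -0.40 (limma adjusted p = 0.406). In the short list of stem cell quiescence targets 1 of 3 was lower, which was Cdkn1a at -1.67 (limma adjusted p = 0.0452), beside Ndn at 0.32 (limma adjusted p = 0.132) and Gfi1 at -0.25 (limma adjusted p = 0.382).

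Genes that act on p53 were also read. Of 19 kinases and cofactors, 4 were higher and 11 lower in the mutant when set against wild-type 3 and 4, for which 19.7% and 22.8% of tested genes were called. The damage kinase genes Atr, at -1.67 (limma adjusted p = 4.76e-04), and Atm, at -1.11 (limma adjusted p = 0.00214), were among the lower ones. Chek1 and Chek2 were not called in either direction. The higher ones were the ribosomal protein genes Rpl5 and Rpl11, whose products bind Mdm2, together with Npm1 and Ing1. Of 16 genes of p53 turnover and inhibition, 2 were higher and 6 lower beside the same background, including the ubiquitin ligase genes Rchy1 at 0.85 (limma adjusted p = 0.0115) and Rfwd3 at -1.34 (limma adjusted p = 0.00831). None of these 35 genes was called over all 7 libraries or against wild-type 1 and 2, where 0% and 0.318% of tested genes were. Against wild-type 3 and 4 the median log2 difference of tested genes ran from 0.84 in the shortest of the 10 length classes to -0.68 in the longest. The part of gene length in the counts of these genes was not tested. Trp63, Trp73 and Cdkn2a were not analysed here.

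Per length, the order of the genes was read from FPKM summed over their transcripts, and Zmat3 was not analysed on that scale. Trp53 led at 190 ± 49.7 FPKM in wild-type (SD, n = 4) and 230 ± 31.6 in mutant cells (SD, n = 3), followed by Sesn1 at 55.6 ± 6.52 and 70.8 ± 3.27. Both steps, from Trp53 to Sesn1 and from Sesn1 to Mdm2, held in 7 of 7 libraries. Mdm2 at 32.0 ± 7.36 FPKM in wild-type cells, Ccng1 at 26.8 ± 7.63 and Aen at 23.7 ± 7.29 lay within their spread of each other. Mdm2 exceeded Ccng1 in 6 of 7 libraries and Ccng1 exceeded Aen in 4 of 7. Mdm4 followed at 13.5 ± 4.58 FPKM and exceeded Trp53inp1 in 7 of 7 libraries. Trp53inp1 at 4.58 ± 3.30 and Phlda3 at 3.70 ± 1.27 FPKM were not ordered beyond their spread (3 of 7 libraries).

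At the level of single transcripts none of 30156 tested differed between genotypes over all 7 libraries (0% called in limma on log2 of FPKM plus 1), and 22.5% did when wild-type 1 and 2 were left out. Sesn1-201, of 2600 bases, starts at position 41887439, where the promoter window with the p53 half-site lies. Its levels were 61.95, 54.0, 46.3 and 43.3 FPKM across wild-type 1 to 4, against 64.7, 70.7 and 67.7 FPKM across mutant 1 to 3. Its level in the mutant exceeded that of wild-type 3 and 4 by 0.58 on the log2 scale (limma adjusted p = 0.0378). Sesn1-202, of 3809 bases, starts upstream at position 41809935. It stood at 2.31, 2.54, 5.95 and 5.92 FPKM across wild-type 1 to 4, against 3.02, 3.53 and 2.82 FPKM across mutant 1 to 3, and was lower in the mutant against wild-type 3 and 4, at -0.75 (limma adjusted p = 0.0407). The FPKM of these 2 transcripts of Sesn1 thus went in opposite directions in that comparison, and the longer transcript was the one that was high in wild-type 3 and 4. Both end at the same position, and the use of either start was not tested.

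A like split was seen in Aen, whose short transcript Aen-201 (2007 bases) had 21.7, 19.3, 10.5 and 9.61 FPKM across wild-type 1 to 4, against 10.01, 13.95 and 15.5 FPKM across mutant 1 to 3. Its long transcript Aen-203 (4956 bases) had 0.475, 1.03, 3.40 and 1.95 FPKM across wild-type 1 to 4, against 0.558, 0.657 and 0.591 FPKM across mutant 1 to 3. Compared with wild-type 3 and 4 the log2 difference of the mutant was -1.17 for Aen-203 and 0.34 for Aen-201 (limma adjusted p = 0.291 for Aen-201). Aen-203 passed the filter only through wild-type 2, 3 and 4, and all mutant libraries were below 1 FPKM. Its difference was therefore not read as a test result. Mdm4-210, a coding transcript of 7105 bases, had 2.76, 3.95, 11.7 and 10.2 FPKM across wild-type 1 to 4, against 3.36, 3.24 and 3.58 FPKM across mutant 1 to 3, a difference of -1.45 against wild-type 3 and 4 (limma adjusted p = 0.0140). Trp53-201 and Trp53-203 share their start and differ by 1 base at their end, so only their sum was read. It was 210, 209, 123 and 132 FPKM across wild-type 1 to 4, against 194, 190 and 240 FPKM across mutant 1 to 3.

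**Figure D5:**
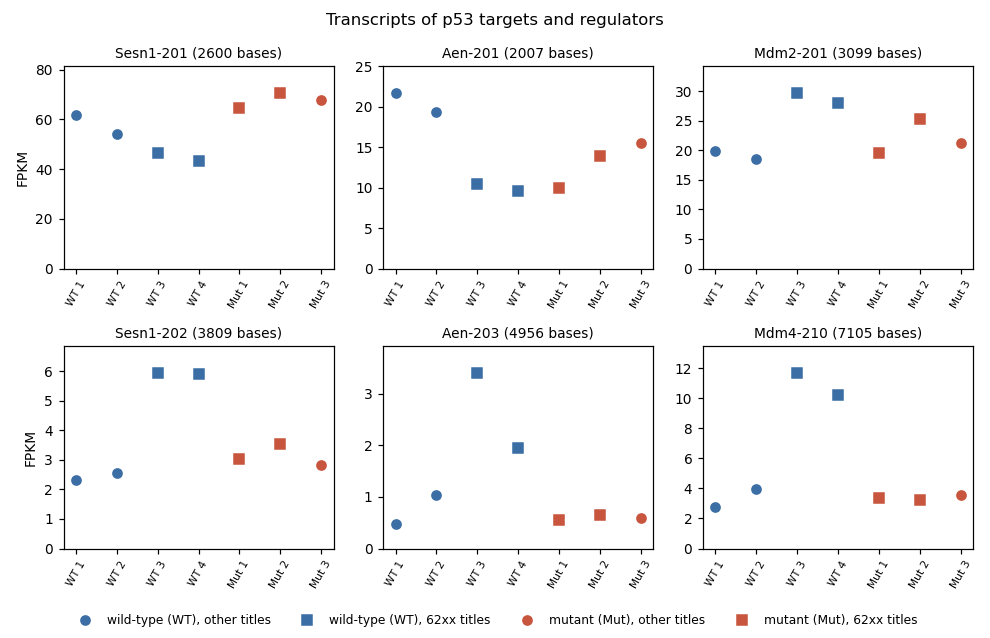
FPKM (y axis, linear from 0) of 6 transcripts of Sesn1, Aen, Mdm2 and Mdm4 in each of the 7 libraries (x axis), with squares for the 62xx title series. The long transcripts Sesn1-202, Aen-203 and Mdm4-210 are highest in wild-type 3 and 4, and Sesn1-201 and Aen-201 are lowest or among the lowest there.

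The genes whose pattern over the 7 libraries lay nearest to that of Trp53, among 11220 genes with a mean normalized count of at least 100, were Ddost, Bsg and Slc25a3. Their root mean square distances on the centred log2 scale were 0.031, 0.032 and 0.036, where the median gene lay at 0.41. Ddost encodes a subunit of oligosaccharyltransferase, Bsg the surface glycoprotein basigin and Slc25a3 the mitochondrial phosphate carrier. Among the genes nearest to Mdm2 were Rnf103 and Ube2j1, at 0.028 and 0.032. Trp53 and Mdm2 were 0.56 apart, while Ccng1 was the member nearest to Mdm2 at 0.17.

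Markers of the sort and of other blood cells were read beside these results. The sum of 12 stem cell markers came to 39129 and 39926 for wild-type 1 and 2, 76773 and 68626 for wild-type 3 and 4, and 37958 to 44764 for the mutant libraries, in normalized counts. Kit, a sort marker, stood at 26511 and 25305 in wild-type 3 and 4 and between 2976 and 6677 in the other libraries, whereas Ly6a (Sca-1) was lowest in wild-type 3 and 4. The sum of 13 neutrophil and monocyte markers ranged from 45637 to 89703 in wild-type and from 10999 to 50361 in mutant libraries. Of these 13 genes 11 had a negative log2 difference over all 7 libraries (median -2.13). For 6 the groups did not overlap, all lower in the mutant, as for 4.34% of tested genes. Against wild-type 1 and 2 the libraries of 8 did not overlap in that direction and of 1 in the other, beside 12.4% and 13.9% of tested genes. Against wild-type 3 and 4, 7 were called lower and 1 higher, beside 22.8% and 19.7% of tested genes. The sum of 8 erythroid markers ranged from 34389 to 54191 in wild-type and from 55402 to 69189 in mutant libraries. In contrast, 6 of the 8 genes had a negative log2 difference over all 7 libraries (median -0.56). For 1 of the 8 the groups did not overlap, in the higher direction, as for 5.23% of tested genes. The sum of 7 megakaryocyte and platelet markers ranged from 9721 to 21841 and from 6889 to 13277. Against wild-type 1 and 2 all 7 genes had a negative log2 difference in the mutant (median -0.97). Itga2b was called lower there, where 0.081% of tested genes were. Against wild-type 3 and 4, 2 of the 7 were called higher and 3 lower, beside 19.7% and 22.8% of tested genes. The sums of 5 B cell markers (1028 to 1732 and 1316 to 1811) and of 3 T and NK cell markers (868 to 2506 and 1198 to 1773) overlapped between genotypes, and none of the markers read was at 0 in every library. The part of these cells in the p53 results was not tested.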

How the data were processed

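A pair of tables was used. The first holds a gene-level signal deposited by the authors, normalized counts with 1 value per gene and library, and the second the deposited FPKM of 66660 transcripts. PicoPure isolation, SMART-Seq v4 amplification and a Swift 2S Plus kit without strand marking were used, per the labels' protocols, so overlapping and antisense genes share reads. The submitters' processing notes name FastQC 0.11.7, STAR 2.7.3a, HTSeq 0.6.1, along with Cufflinks 2.2.1 and DESeq2 1.12.4, on build GRCm38. All signal values (100%) proved to be whole multiples of a step per library, to within 0.01 reads, and the reads so recovered served edgeR and DESeq2.

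limma 3.58.1 (R 4.3.3), with a trended variance, was run on log2 of the normalized count plus 1 for the 16047 genes that reached 10 in 3 or more libraries. For FPKM plus 1 it was run on the 30156 transcripts that reached 1 in 3 or more. Tests were two-sided at a Benjamini-Hochberg adjusted p of 0.05, and intervals are limma's 95% intervals. The added 1 understates changes of low genes. Alternatives were edgeR 4.0.16, DESeq2 1.42.0, other pseudocounts, filters, scalings, variance models and library weights, and each library left out. The fits were tested on simulated reads. GENCODE vM21 gave positions and lengths for 97.9% of genes.

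The members and gene lists were chosen with earlier results of these data known. Genes named from each list were those called over all libraries or against both pairs, or else the pair of smallest unadjusted p over all libraries, with Cdkn1a, Bax, Bbc3 and Calr added. Some genes that the rule names are left out of the text. The title series comparisons were added after the data had been seen.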

Additional observations from a re-analysis of the deposited data

Results flagged for a closer look

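The shift between the 62xx libraries and the other titles differed between genotypes for 2 of the 9 genes, by an interaction term in limma that was added after the data had been seen. For Mdm4 the shift in the mutant minus that in wild-type was -1.54 on the log2 scale (limma adjusted p = 0.00757). In wild-type the counts were 718 and 960 outside the series and 2426 and 2127 within it, and in the mutant they were 884 outside and 863 and 798 within. For Trp53inp1 it was also -1.54 (limma adjusted p = 0.00994), with 214 and 241 outside and 1116 and 921 within the series in wild-type, and 356 outside and 530 and 562 within it in the mutant. Of all tested genes 8.03% were called for this term. The mutant shift rests on mutant 3 alone outside the series. The Trp53inp1 call was lost without wild-type 1 (limma adjusted p = 0.0590) or wild-type 3 (0.0563). With the length slope as a covariate neither call held (limma adjusted p = 0.0989 for Mdm4 and 0.182 for Trp53inp1). Among libraries of like genotype and title series the slope differed mainly between mutant 1 (-0.116) and mutant 2 (0.010). That fit therefore cannot tell gene length apart from this interaction.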

How the results depend on the processing

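Of 918 recomputed values for the 9 genes, Cdkn1a and Gdf15, 811 kept their direction and their side of the threshold, 41 lost and 22 gained a call, and 44 changed sign. No paired analysis was possible because the replicate numbers of this study were given in order within each group and mark no shared animal or batch. The number of genes called over all 7 libraries was 110 in DESeq2, 2636 with both wild-type pairs as groups of 1 fit, 127 with the length slope, 3597 with the title series as a covariate, 6010 within the 62xx series and 1022 outside it. Against wild-type 1 and 2 it was 51, with 22 after quantile scaling, 0 without the variance trend, 4874 with library weights, 24 in edgeR, 298 in DESeq2 and 0 (without wild-type 1) to 769 (without mutant 2) with 1 library left out. Against wild-type 3 and 4 it was 6828, with 11598 under library weights and 1483 (without wild-type 3) to 8760 (without mutant 2) with 1 left out. The weights did not converge. Between the title series it was 5948, with 0 under the length slope and 2164 (without wild-type 2) to 7980 (without mutant 3). For the interaction it was 1288, with 2150 in DESeq2, 35 under the length slope and 338 (without wild-type 1) to 3796 (without mutant 2). Of transcripts 0 were called, with 2 when wild-type 3 and 4 were left out, 6778 when wild-type 1 and 2 were, and 0 to 1 with 1 library left out.

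The following log2 differences changed sign, and the cause was not tested. Over all 7 libraries the length slope gave 0.11 for Mdm2, 0.33 for Ccng1, -0.017 for Phlda3 and 0.93 for Trp53inp1. Quantile scaling gave 0.0082 for Ccng1 and 0.061 for Trp53inp1. Outside the 62xx series Mdm4 was at 0.091 and Trp53inp1 at 0.65. With 1 library left out the ranges were -0.16 to 0.18 for Ccng1, -0.039 to 0.39 for Phlda3 and -0.41 to 0.38 for Trp53inp1. Against wild-type 1 and 2 they were -0.12 to 0.028 for Trp53, -0.012 to 0.19 for Mdm2, -0.18 to 0.24 for Mdm4, -0.32 to 0.20 for Phlda3 and -0.11 to 0.00036 for Zmat3, and quantile scaling gave -0.0062 for Mdm4. Against wild-type 3 and 4 they were -0.44 to 0.034 for Zmat3 and -0.25 to 0.23 for Aen, with 0.18 for Aen after quantile scaling. Between the wild-type pairs Zmat3 ranged from -0.086 to 0.39. Between the title series the length slope gave -0.057 for Mdm2, -0.35 for Mdm4 and -0.029 for Zmat3, and leaving out libraries -0.00023 to 0.24 for Zmat3. For the interaction the length slope gave 0.29 for Mdm2, 0.12 for Ccng1, 0.24 for Zmat3 and 1.31 for Cdkn1a, quantile scaling gave 0.11 for Zmat3, and leaving out libraries -0.30 to 0.65 for Phlda3 and -0.30 to 0.17 for Zmat3.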
